A study of Mus musculus with 3 samples.

Results

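The Krt19-Htr2c-Lepr resident alveolar macrophages are lavage macrophages that carried UMIs of Htr2c, Lepr, Krt19, Wwtr1 and Prickle2 beside those of resident alveolar macrophage genes, and 1942 of the 42888 kept cells met that description. A UMI is a molecular tag that counts 1 captured RNA molecule. Barcodes with under 200 detected genes, or with over 20% of UMIs from mitochondrial genes, were removed first. Members then had Lyz2, the macrophage lysozyme, at 0.5% of UMIs or more, at least 2 UMIs over Ear2, Car4, Krt79, Siglecf and Kcnn3 (the resident gate), and at least 2 UMIs over the 5 state genes named first (the state gate). There were 788 members in the WT_GW5074 library, 968 in the KO_DMSO library and 186 in the WT_DMSO library. Cells that passed the Lyz2 and resident gates but held 0 or 1 state gene UMI, called other resident cells here, numbered 4266, 3156 and 1990 in WT_GW5074, KO_DMSO and WT_DMSO. Since measured state gene UMIs chose the members, every difference between members and other resident cells is a description of that choice and carries no test.

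All 3 groups of mice had received bleomycin, which injures the lung and serves as a model of pulmonary fibrosis, by airway instillation 14 days before lavage. WT_GW5074 were wild-type mice given the kinase inhibitor GW5074, a small molecule. KO_DMSO were mice lacking Clec7a, the gene of the fungal β-glucan receptor Dectin-1, and WT_DMSO were wild-type mice, both labelled with DMSO, the vehicle. The lavage of the mice of a group was pooled and sorted for surface CD11b or CD11c, so each group gave 1 library, a difference between libraries has no replicate check, and group, pool and run cannot be told apart. The strain, age and number of the mice and the dose of GW5074 are not given in the sources used here. Intervals below are 95% intervals that cover counting error only, exact except for ratios of shares, which have Katz log intervals.

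Alveolar macrophages live on the surface of the airspace, take up and break down surfactant lipid, and depend on the lipid-activated receptor PPARγ. After injury, monocyte-derived macrophages enter the airspace and express genes such as Spp1 and the C1q subunits. Keratin 19 and TAZ (the product of Wwtr1, a co-activator of the Hippo pathway) are best known from epithelium, the leptin receptor Lepr from hypothalamus and mesenchyme, and the serotonin receptor Htr2c and the planar polarity gene Prickle2 from brain.

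The libraries held 45462817, 34859676 and 39180331 UMIs over 17809, 11678 and 13504 barcodes in WT_GW5074, KO_DMSO and WT_DMSO. Members were shallower in both compared libraries, with a median of 2492.5 UMIs in WT_GW5074, 2745 in KO_DMSO and 4143.5 in WT_DMSO. Clec7a stood at 846 CPM in WT_GW5074 members, 13.9 CPM in KO_DMSO members and 800 CPM in WT_DMSO members (CPM is the UMI count of a gene scaled to 1000000 UMIs, after summing over the cells), which is as the labels have it. The libraries read the 3′ ends of transcripts, and the deleted exons are not given in the sources used here. Neutrophil markers moved with the library: their summed level over 6 genes was 299, 288 and 2008 CPM in members and 368, 345 and 2121 CPM in other resident cells of WT_GW5074, KO_DMSO and WT_DMSO. In pairs, 119 barcodes were shared by WT_GW5074 and KO_DMSO, 154 by WT_GW5074 and WT_DMSO, and 80 by KO_DMSO and WT_DMSO. Of these, 2 were members in both libraries of a pair, KO_DMSO and WT_DMSO.

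Members made up a larger share of the resident gate in KO_DMSO and WT_GW5074 than in WT_DMSO. The share was 15.6% in WT_GW5074 (788 of 5054 cells, interval 14.6 to 16.6%), 23.5% in KO_DMSO (968 of 4124, 22.2 to 24.8%) and 8.55% in WT_DMSO (186 of 2176, 7.41 to 9.80%). That was 1.82-fold (1.57 to 2.12) the WT_DMSO share in WT_GW5074 and 2.75-fold (2.37 to 3.18) in KO_DMSO. Of all kept cells, members were 4.43% in WT_GW5074, 8.31% in KO_DMSO and 1.38% in WT_DMSO. The resident gate itself held 28.4%, 35.4% and 16.2% of kept cells in these libraries, so both steps ran in the same order.

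The state gate is a fixed number of UMIs, which a deeper cell reaches at a lower concentration, and members and other resident cells were deepest in WT_DMSO, where the median other resident cell had 4457 UMIs, against 2922 in WT_GW5074 and 3372.5 in KO_DMSO. Within bands of depth the order of the libraries stayed the same. Among cells of 1000 to under 2000 UMIs the share was 19.8% in WT_GW5074, 37.6% in KO_DMSO and 7.04% in WT_DMSO. Among those of 3000 to under 5000 UMIs it was 12.2%, 16.7% and 9.50%. The intervals of WT_GW5074 (10.7 to 13.8%) and WT_DMSO (7.61 to 11.7%) overlapped there, as they did from 2000 to under 3000 UMIs. Below 1000 UMIs, where WT_DMSO had 0 members among 18 cells, the intervals of all 3 libraries overlapped. From 5000 UMIs up, those of WT_GW5074 (8.78 to 14.4%) and KO_DMSO (11.6 to 18.8%) overlapped. With each cell thinned to 2000 UMIs the share was 12.9% in WT_GW5074, 19.0% in KO_DMSO and 5.90% in WT_DMSO. Among cells of 2000 to 6000 UMIs the fold over WT_DMSO was 1.45 in WT_GW5074 and 2.18 in KO_DMSO. Without cells holding 3 or more UMIs of other types' markers it was 1.48 and 2.21. These folds lie below the intervals of the folds given above for all resident gate cells. The fold over WT_DMSO moved past 1.5 times its value with all kept cells as denominator (3.20 in WT_GW5074 and 6.01 in KO_DMSO) and, in alternatives chosen after seeing the data, with the state genes also at 0.1% of UMIs (4.06 and 6.79) and with cells thinned to 1000 UMIs (4.46 and 8.29).

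**Figure D1:**
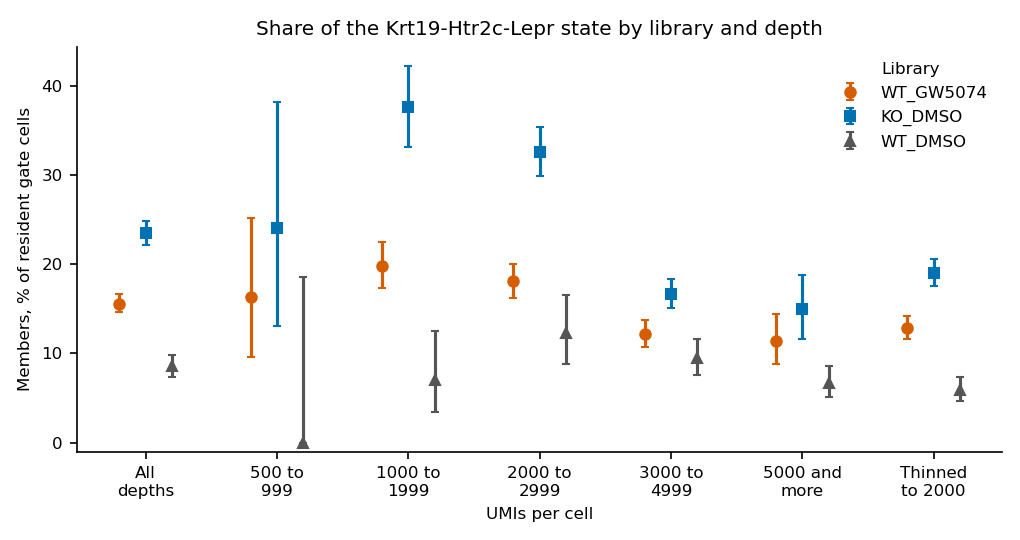
Members as a percentage of resident gate cells (vertical axis) in bands of UMIs per cell and after thinning to 2000 UMIs (horizontal axis), with bars for exact 95% intervals of counting error. KO_DMSO lies above WT_GW5074 and WT_GW5074 above WT_DMSO in each band, with 23.5%, 15.6% and 8.55% at all depths.

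State gene UMIs were rare in T cells, chosen with Lyz2 under 0.5% of UMIs, and in monocyte-derived macrophages outside the resident gate. Among T cells, 1 of 203 in WT_GW5074 had 2 or more state gene UMIs, against 0 of 240 in KO_DMSO (up to 1.53%) and 0 of 312 in WT_DMSO (up to 1.18%), at median depths of 813, 1121 and 1400 UMIs. Among macrophages with at least 3 UMIs over 5 monocyte-derived macrophage markers, among them C1qa, C1qb, C1qc and Ms4a7, and outside the resident gate, at median depths of 2835, 3641 and 3990 UMIs, the share was 0.257% in WT_GW5074, 0.417% in KO_DMSO and 0.467% in WT_DMSO. All of these lie below the 8.55% to 23.5% of the resident gate. The limits on Lyz2 and on resident gate genes may also remove cells that hold free RNA of resident macrophages. These shares may therefore understate that background.

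Many members stood near the edge of the gate. Exactly 2 state gene UMIs were held by 338, 300 and 85 members (42.9%, 31.0% and 45.7%) of WT_GW5074, KO_DMSO and WT_DMSO, and exactly 1, just outside, by 557, 384 and 150 resident gate cells. The median member had 3 state gene UMIs in each library, and the highest had 12, 21 and 13. UMIs of a single state gene made up the whole signal in 21.3%, 21.1% and 28.5% of members, and 2 different state genes in 56.7%, 47.6% and 48.4%. All 5 were seen together in 2, 7 and 1 cells.

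Htr2c, which couples serotonin to Gq proteins, gave the most state UMIs and was detected in 68.1% of WT_GW5074 members, 71.9% of KO_DMSO members and 60.8% of WT_DMSO members. Krt19, an intermediate filament keratin, was detected in 54.6%, 55.7% and 44.6%. Lepr was detected in 28.6%, 33.4% and 24.2%, Wwtr1 in 28.4%, 31.2% and 33.9%, and Prickle2 in 25.6%, 25.5% and 34.4%. The label's 3 genes therefore do not mark every member: most members carried no Lepr UMI. The genes lie on different chromosomes or far apart (mm10): Krt19 at chr11:100140810-100148665, Htr2c at chrX:146962513-147197277, Lepr at chr4:101717404-101815352, Wwtr1 at chr3:57455649-57575910 and Prickle2 at chr6:92370908-92706155.

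The state genes tended to be found in the same cells. With resident gate cells thinned to 2000 UMIs, Krt19 was found in 32.5% of Htr2c-positive and 7.28% of Htr2c-negative cells of WT_GW5074, in 39.2% and 8.28% in KO_DMSO, and in 20.2% and 2.82% in WT_DMSO. Krt19-positive cells more often held Cidec, a lipid droplet fusion protein that no gate used: 27.1% against 5.28% of Krt19-negative cells in WT_GW5074, 33.1% against 8.23% in KO_DMSO and 19.6% against 2.91% in WT_DMSO. Cells of a library share its pool and free RNA, so these shares are given without a test.

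Since these genes were detected together, their promoters (RefSeq, GRCm38.p6, 250 bases before to 50 after the start) were searched on both strands for GGAATG (a TEAD motif, the partner of TAZ), GAGGAAG (a PU.1 and ETS motif) and TGACTCA (an AP-1 motif). These were found in 14.7%, 13.6% and 5.20% of all 32851 promoters of that length. The promoters of Wwtr1 (chr3:57575861-57576160, minus strand), Cidec (chr6:113435711-113436010, minus strand) and Htr2c (chrX:146962263-146962562, plus strand) are printed 5′ to 3′ because they show a promoter with 2 matches, with 1 match and with none. Capitals mark the matches: GGAATG and then GAGGAAG in Wwtr1, and CATTCC, which is GGAATG on the other strand, in Cidec.
Wwtr1: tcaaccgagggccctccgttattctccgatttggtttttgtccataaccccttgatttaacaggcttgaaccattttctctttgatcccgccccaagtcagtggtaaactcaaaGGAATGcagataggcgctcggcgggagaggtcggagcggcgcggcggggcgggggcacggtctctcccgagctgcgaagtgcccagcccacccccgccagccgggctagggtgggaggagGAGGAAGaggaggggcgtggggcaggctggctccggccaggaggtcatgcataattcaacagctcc
Cidec: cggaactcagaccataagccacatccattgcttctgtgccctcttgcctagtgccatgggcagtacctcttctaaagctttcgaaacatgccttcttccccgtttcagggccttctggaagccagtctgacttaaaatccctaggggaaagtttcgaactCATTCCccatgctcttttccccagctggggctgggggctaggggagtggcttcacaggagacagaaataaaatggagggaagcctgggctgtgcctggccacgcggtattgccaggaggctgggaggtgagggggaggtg
Htr2c: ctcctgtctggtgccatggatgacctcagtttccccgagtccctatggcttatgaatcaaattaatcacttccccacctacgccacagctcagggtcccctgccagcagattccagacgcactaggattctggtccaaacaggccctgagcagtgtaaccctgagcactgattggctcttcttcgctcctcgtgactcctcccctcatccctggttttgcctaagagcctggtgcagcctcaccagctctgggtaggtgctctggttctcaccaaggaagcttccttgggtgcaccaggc
A second Cidec promoter (chr6:113434715-113435014) held TGACTCA, and those of Lepr, Prickle2 and Krt79 held none of the 3 motifs. A match is a description of the letters and not a binding site. The Krt19 promoter is not shown.

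Members differed from other resident cells in genes of the gates and in other genes. Of 6258 genes tested (at least 20 CPM in 1 of the 2 cell sets and 100 UMIs over both, in each library), 162 (2.59%) were at least 1.5-fold higher in members in all 3 libraries and 141 (2.25%) at least 1.5-fold lower. These counts include gate genes: Htr2c, Krt19, Wwtr1, Prickle2, Car4, Kcnn3 and Siglecf are among the higher. With edgeR's TMM scaling the split was 129 higher and 165 lower. The likeness of the 3 libraries is in part fixed by the rule, since each used the same gates.

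Fabp1, Marco and Cidec had the highest median ratios. Fabp1, a fatty acid binding protein, was at 99.9, 198 and 71.6 CPM in members of WT_GW5074, KO_DMSO and WT_DMSO, against 12.2, 21.8 and 9.37 CPM in other resident cells of those libraries. Marco, a scavenger receptor of alveolar macrophages, was at 326, 215 and 425 CPM in members, against 47.6, 27.6 and 41.4 CPM. Cidec was at 150, 195 and 67.9 CPM in members, against 21.01, 28.17 and 8.66 CPM. Members lay far above other resident cells of their own library for all 3 genes, with log2 ratios between 2.78 and 3.36.

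Kcnip4, Adgrl3 and Erc2 were also among the 15 highest. Kcnip4, a calcium-binding partner of Kv4 potassium channels, reached 2654, 2919 and 2094 CPM in members, against 536, 458 and 199 CPM in other resident cells. Its log2 ratio was 2.31 in WT_GW5074, 2.67 in KO_DMSO and 3.40 in WT_DMSO. Adgrl3, an adhesion receptor of the latrophilin family, was at 193, 250 and 171 CPM in members, against 39.1, 45.4 and 23.8 CPM. Erc2, a scaffold of presynaptic active zones, was at 77.4, 83.6 and 51.0 CPM, against 19.4, 13.8 and 7.44 CPM. The cell cycle gene Ccnd2 (cyclin D2), Prom1, the serine synthesis enzyme Phgdh, the motor Myo6, Cpne8, Egfem1, Mctp2 and Rufy4 were also among the 15 highest, with median log2 ratios between 1.75 and 2.66.

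Mmp12, Mmp14 and S100a6 were among the 10 lowest. Mmp12, the macrophage elastase, was at 28.8, 20.2 and 14.6 CPM in members of WT_GW5074, KO_DMSO and WT_DMSO, against 129, 114 and 103 CPM in other resident cells. Mmp14, a membrane-bound metalloprotease, was at 57.2, 35.5 and 38.8 CPM, against 184, 142 and 156 CPM. S100a6 was at 455, 217 and 354 CPM, against 1441, 1107 and 1422 CPM. Prkcb, Cacna1d, Rai14, Apbb2, Arg1 and Syngr1 were also among the 10 lowest, with median log2 ratios between -2.38 and -2.07.

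**Figure D2:**
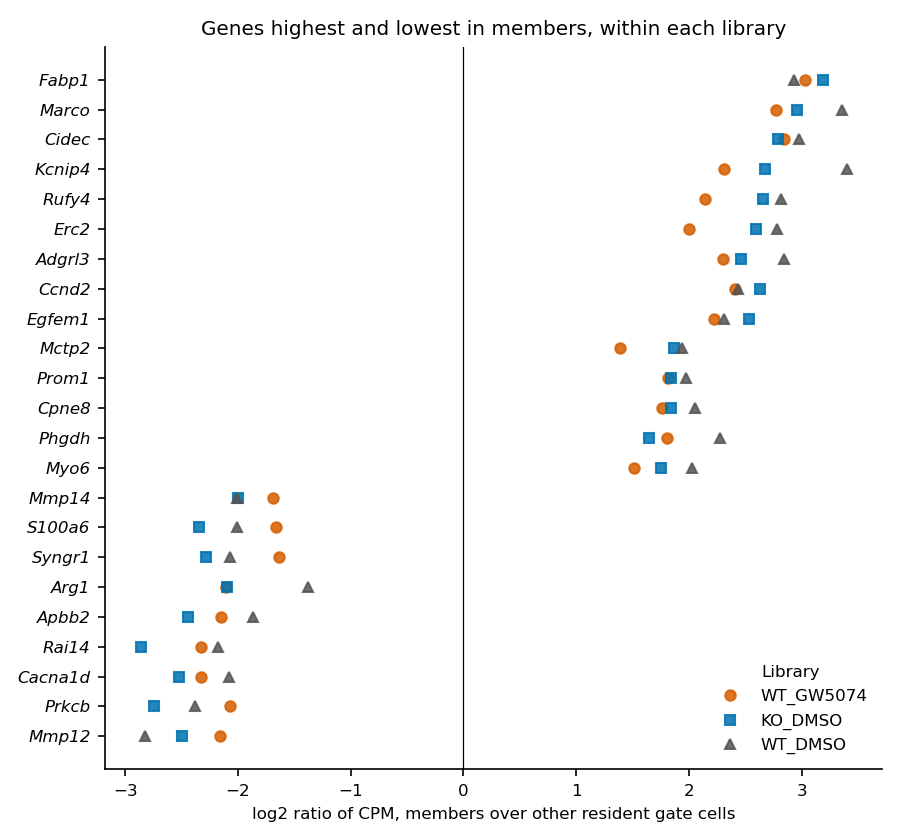
Log2 ratio of CPM in members over other resident gate cells (horizontal axis) for genes among the 15 highest and 10 lowest by median (vertical axis), with 1 point per library. Fabp1, Marco and Cidec lie between 2.78 and 3.36, and the lower genes lie below 0 in all 3 libraries.

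By marker list, members were on the resident side of the gate. Of 20 resident alveolar macrophage markers, 19 were tested; 10 were past 1.5-fold higher in all 3 libraries and 0 lower, with a median log2 ratio of 0.97 against 0.08 for all genes tested. The 10 were Car4, Chil3, Cidec, Ear1, Fabp1, Kcnn3, Marco, Plet1, Pparg and Siglecf, of which Car4, Kcnn3 and Siglecf were used by the gate. The median log2 ratio was below 0 for 3 of the 19, among them the gate gene Ear2 (-0.19) and Fabp4 (-0.11). Of 14 monocyte-derived macrophage markers, 10 were tested; 7 were lower (C1qa, C1qb, C1qc, Ccr2, Cd14, Ms4a7 and Trem2) and 0 higher, with a median of -1.27. Cells with at least 3 UMIs over the 5 markers used above were 7.23%, 6.51% and 10.2% of members, against 32.8%, 33.3% and 46.4% of other resident cells, in WT_GW5074, KO_DMSO and WT_DMSO.

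Antigen presentation and profibrotic genes followed the lower side. Of 7 MHC class II genes 5 were lower and 0 higher, with a median log2 ratio of -1.48. Cd74, the invariant chain, was at 1046, 847 and 673 CPM in members, against 2338, 2806 and 2300 CPM in other resident cells. Of 13 profibrotic genes tested, 5 were lower (Arg1, Fn1, Mmp12, Mmp14 and Trem2), and 1, the collagen-cleaving cathepsin Ctsk, was higher, with a median of -0.78. Spp1, which encodes osteopontin, was at 2888, 2377 and 6562 CPM in members, against 7873, 7340 and 9186 CPM, and so missed 1.5-fold in WT_DMSO.

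In the pathway lists of the state genes, no tested gene but the state genes themselves was past 1.5-fold in all 3 libraries. Over all 6258 genes tested, 2.59% were higher and 2.25% lower, so lists this short may hold none. The floors left 10 of 21 Hippo-TAZ genes and 12 of 16 leptin receptor and JAK-STAT3 genes. They left 1 of 12 planar polarity genes and 3 of 13 serotonin genes. Of 10 Hippo-TAZ genes tested, only Wwtr1, which the rule used, was past 1.5-fold. Yap1, Tead3, Ccn1 and Ccn2 had no UMI in members of any library. That allows up to 1.35, 1.04 and 3.64 CPM in WT_GW5074, KO_DMSO and WT_DMSO (3 counts of each sum). These genes also had no UMI in other resident cells of any library. None of 12 leptin receptor and JAK-STAT3 genes was past 1.5-fold in all 3 libraries; Stat3 was at 254, 245 and 254 CPM in members, against 225, 218 and 253 CPM. Lepr itself, with 63 UMIs in members and 15 in other resident cells of WT_DMSO, missed the floor of 100 UMIs there and is not among the 12. Of the planar polarity list Prickle2 alone passed the floors. Of 3 serotonin genes tested, only Htr2c was past 1.5-fold. The serotonin transporter Slc6a4 was at 44.1, 43.9 and 32.8 CPM in members, against 30.2, 30.9 and 19.2 CPM.

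Lipid and ion channel genes were split. Of 10 lipid droplet genes tested 2 were higher, Cidec and Mgll, a monoacylglycerol lipase at 315, 342 and 345 CPM in members against 123, 137 and 96.7 CPM. Of 19 lipid uptake genes, Fabp1, Marco and Pparg were higher and 0 lower. Pparg, the gene of PPARγ, was at 346, 442 and 254 CPM in members, against 205, 256 and 154 CPM in other resident cells, and was the only one of 15 alveolar macrophage transcription factors past 1.5-fold. Of 6 potassium channel genes tested, Kcnip4 and Kcnn3 were higher, and Kcnk13 and Kcnn4, 2 other channel subunits, were lower. Of 16 lysosomal genes, 2 were lower, among them the protease gene Ctss, and 0 higher.

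Of 14 lung epithelial markers, 9, 7 and 8 were at 0 in members of WT_GW5074, KO_DMSO and WT_DMSO, and 6 were at 0 in all 3. Krt8, the usual partner of Krt19 in simple epithelium, Krt7, Sftpc, Cldn18, Cldn4 and Lamp3 were these 6. The summed level of the 14 was higher in members of every library, at 96.3, 65.5 and 70.4 CPM in members, against 60.3, 50.3 and 65.7 CPM in other resident cells. Cdh1 (E-cadherin) had log2 ratios of members over other resident cells of 1.29, 1.03 and 0.80. Epcam, an epithelial adhesion molecule, was at 35.6, 23.3 and 13.3 CPM in members, against 10.5, 11.1 and 9.27 CPM.

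Genes that no gate used differed between cells with 0 and 1 state gene UMI as well as across the gate. In cells with 0, 1, 2, 3 to 4 and 5 to 9 state gene UMIs, Cidec was at 13.0, 84.3, 127, 161 and 177 CPM in WT_GW5074, at 16.4, 131, 166, 194 and 225 CPM in KO_DMSO, and at 6.64, 38.2, 65.2, 63.4 and 86.8 CPM in WT_DMSO. For Cidec, cells just outside the gate, with 1 state gene UMI, thus lay between the cells with none and the members. Kcnip4 went the same way up to 3 or 4 UMIs, with 347 CPM at 0, 2041 at 1 and 2471 at 2 in WT_GW5074. C1qa, a complement subunit of recruited macrophages, was at 351, 154, 138, 95.8 and 75.2 CPM in WT_GW5074 and at 342, 102, 68.9, 90.2 and 74.5 CPM in KO_DMSO. In WT_DMSO it was at 389, 161, 220, 6.68 and 7.23 CPM, so cells with 1 UMI there lay below those with 2. In WT_DMSO the bin of 5 to 9 UMIs held 27 cells, and Spp1 had no even course there.

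**Figure D3:**
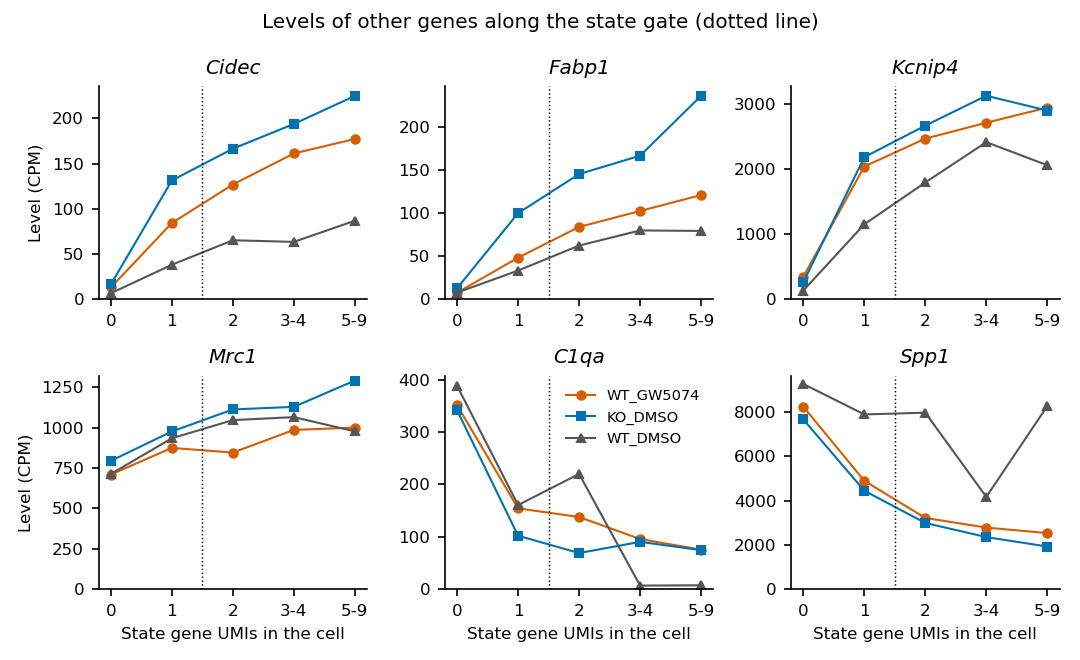
Level in CPM (vertical axis) of 6 genes that no gate used, in resident gate cells grouped by state gene UMIs (horizontal axis), with 1 line per library and the state gate as a dotted line. Cidec is lowest in cells with 0 state gene UMIs, at 13.0, 16.4 and 6.64 CPM in WT_GW5074, KO_DMSO and WT_DMSO, and its level in cells with 1 UMI lies between these and the members.

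The genes most like the state, by the mean log2 odds ratio of being detected in the same resident gate cells after thinning to 2000 UMIs (2847, 2630 and 1289 cells in WT_GW5074, KO_DMSO and WT_DMSO), were Chil3 (4.93), Kcnip4 (4.90), Marco (3.20), Ccnd2 (2.96), Adgrl3 (2.93), Egfem1 (2.60), Nav2 (2.42) and Cpne8 (2.22). Kcnip4 was detected in 88.5%, 85.5% and 83.7% of cells with a state gene UMI, against 21.7%, 17.4% and 12.7% of cells without one. Chil3, a chitinase-like lectin, was detected in 98.8% to 99.1% of the first and 73.6% to 74.3% of the second.

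The libraries were then compared within the members. Both comparisons use the same 186 WT_DMSO members, so they share their control and are given side by side. Of 4975 genes tested for WT_GW5074 over WT_DMSO (at least 20 CPM in 1 library and 100 UMIs over both), 155 (3.12%) were at least 1.5-fold higher and 77 (1.55%) at least 1.5-fold lower. Of 5481 genes tested for KO_DMSO over WT_DMSO, 361 (6.59%) were higher and 273 (4.98%) lower, while TMM scaling gave 451 higher and 217 lower. The interval of the ratio left out no change in 138 and 76 of the WT_GW5074 genes and in 318 and 267 of the KO_DMSO genes. All these counts include gate genes: Htr2c, Krt19, Krt79 and Lepr are among the higher of both comparisons. Car4 and the deleted Clec7a are among the lower of KO_DMSO.

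Cholesterol synthesis genes were lower in members of both libraries, with 14 of 14 tested past 1.5-fold in KO_DMSO and 4 of 14 in WT_GW5074. The 18 genes of the list summed to 1293 CPM in WT_GW5074 members (1246 to 1341), 819 CPM in KO_DMSO members (786 to 853) and 1829 CPM in WT_DMSO members (1737 to 1923). Other resident cells of the same libraries spanned a narrower range, at 1246, 1098 and 1259 CPM. WT_DMSO members thus lay above the other resident cells of their library, and KO_DMSO members below theirs. The median member had 8.75, 4.78 and 15.2 of these UMIs per 10000 UMIs in WT_GW5074, KO_DMSO and WT_DMSO, and the 5 cells with the most held 4.42%, 4.04% and 11.7% of them.

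By gene, 14 of 14 tested were past 1.5-fold lower in KO_DMSO members, with a median log2 ratio of -1.17 against 0.01 for all genes tested. The same 14 had a median of -0.18 in other resident cells, where 1 was past 1.5-fold. In WT_GW5074 members 14 of 14 were below 0 and 4 past 1.5-fold (among them Dhcr7, Fdps and Hmgcs1), with a median of -0.50 against 0.02 for all genes tested and -0.05 for the same genes in other resident cells. Hmgcs1, which makes HMG-CoA, was at 158 CPM in WT_GW5074, 93.7 CPM in KO_DMSO and 273 CPM in WT_DMSO members, a log2 ratio of -0.79 (-1.03 to -0.54) and -1.54 (-1.80 to -1.28) to WT_DMSO. Sqle, squalene epoxidase, was at 47.7, 23.3 and 66.7 CPM, and Dhcr7, a reductase of the last step, was at 27.5, 19.5 and 60.7 CPM. The regulator Srebf2 moved least of the 14 in KO_DMSO, at 61.0 CPM against 95.9 CPM in WT_DMSO. Under the alternatives that could be run, the KO_DMSO median stayed between -1.45 and -1.10 and the WT_GW5074 median between -0.998 and -0.46. Among cells of 2000 to 6000 UMIs, a band within which depth was not matched, they were -1.27 and -0.46.

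**Figure D4:**
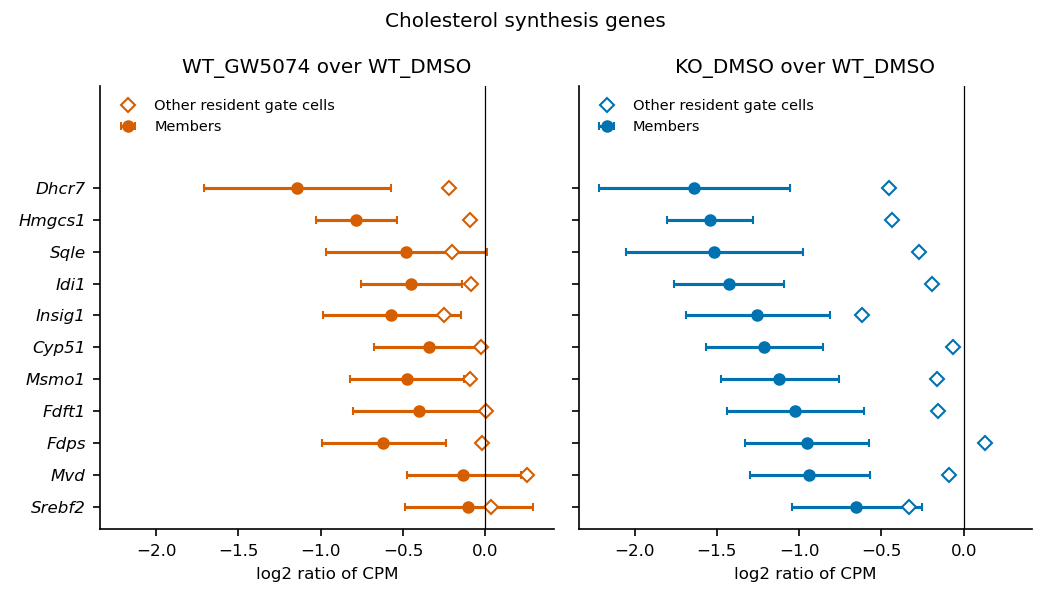
Log2 ratio of CPM to WT_DMSO (horizontal axis) for cholesterol synthesis genes among the 14 tested, in members (filled, with exact 95% intervals of counting error) and in other resident gate cells (open), for WT_GW5074 and KO_DMSO. All filled points lie left of 0 in both panels, and the medians over all 14 genes were -0.50 and -1.17, while the open points lie nearer 0.

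Scd2, a fatty acid desaturase, was also among the lowest in KO_DMSO members, at 63.5, 31.0 and 94.6 CPM in WT_GW5074, KO_DMSO and WT_DMSO. Its log2 ratio for KO_DMSO over WT_DMSO was -1.61 (-2.07 to -1.15) in members and -0.50 in other resident cells. Fabp4, a fatty acid binding protein, was at 155, 219 and 624 CPM, a log2 ratio of -2.01 (-2.21 to -1.81) in WT_GW5074 and -1.51 (-1.68 to -1.34) in KO_DMSO. In other resident cells Fabp4 was at 192, 237 and 349 CPM. Its 514 UMIs in WT_DMSO members were spread over 95 cells, with 23.3% in 5 of them.

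Cidec and, in KO_DMSO, Fabp1 were higher, while most of the lipid droplet list was not past 1.5-fold. Of 9 lipid droplet genes tested in WT_GW5074, Cidec was higher and Dgat1, a triglyceride synthesis enzyme, lower, with a median log2 ratio of -0.12. Of 10 tested in KO_DMSO, Cidec and the lipase gene Pnpla2 were higher and 0 lower, with a median of 0.14. Cidec was at 150, 195 and 67.9 CPM in WT_GW5074, KO_DMSO and WT_DMSO members, a log2 ratio of 1.15 (0.73 to 1.58) and 1.52 (1.12 to 1.94) to WT_DMSO. Fabp1 was at 99.9, 198 and 71.6 CPM, with a log2 ratio of 0.48 in WT_GW5074 and 1.47 (1.08 to 1.88) in KO_DMSO. Other resident cells, which include cells with 1 state gene UMI, had log2 ratios of 1.28 and 1.70 for Cidec. Cells with 0 state gene UMIs had Cidec at 13.0, 16.4 and 6.64 CPM in WT_GW5074, KO_DMSO and WT_DMSO. Whether cells of the state that missed the gate made this difference was not tested. Of the lipid uptake list, Abca1 and Cd36 were past 1.5-fold higher in WT_GW5074, and Abca1, Cd36, Fabp1, Olr1 and Pparg in KO_DMSO. Marco, in the same list, was lower in KO_DMSO members, at 215 CPM against 425 CPM in WT_DMSO, and was at 326 CPM in WT_GW5074.

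The state genes themselves were at higher levels in both compared libraries, but the gate demands 2 UMIs from every cell and so sets a higher CPM in shallower cells. Htr2c was at 482 CPM in WT_GW5074, 619 CPM in KO_DMSO and 290 CPM in WT_DMSO members. Krt19 was at 313, 334 and 167 CPM, and Lepr at 131, 170 and 76.4 CPM. Wwtr1 at 125, 133 and 102 CPM and Prickle2 at 123, 116 and 110 CPM lay closer together. Krt79, a keratin used by the resident gate, was at 99.5, 147 and 37.6 CPM. In other resident cells, which hold at most 1 state gene UMI each, the 5 genes summed to 40.8, 34.9 and 15.3 CPM.

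**Figure D5:**
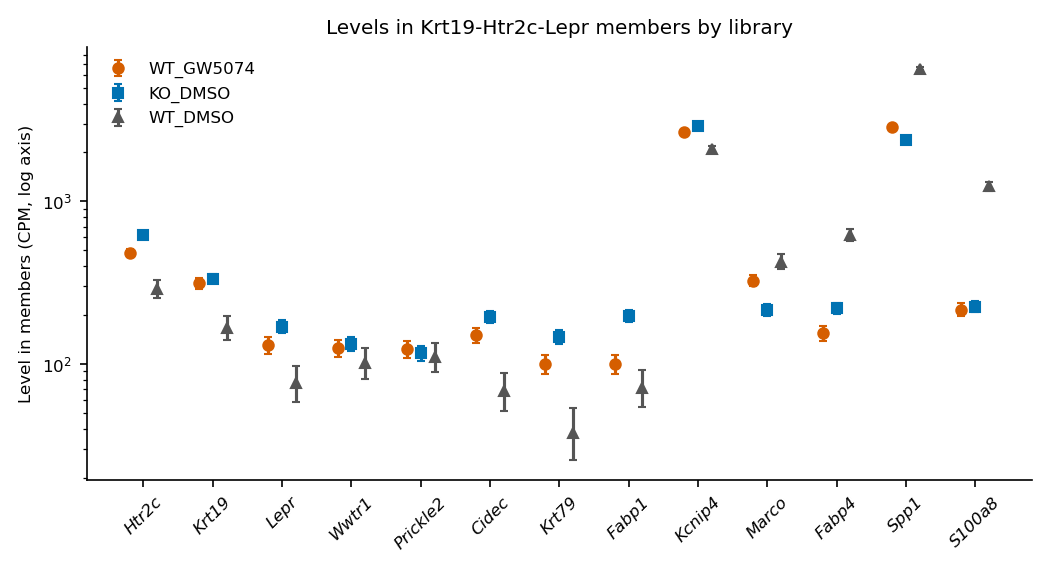
Level in members (CPM, log axis) of the state genes and of selected other genes (horizontal axis), with 1 point per library and bars for exact 95% Poisson intervals. Htr2c, Krt19, Lepr, Cidec and Krt79 are lowest in WT_DMSO, while Fabp4, Spp1 and S100a8 are highest there.

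Patj, Tppp3 and Mamdc2 were among the 12 highest ratios in both libraries, and Gal in WT_GW5074. Patj, a tight junction polarity scaffold, was at 138 CPM in WT_GW5074, 169 CPM in KO_DMSO and 36.4 CPM in WT_DMSO members, a log2 ratio of 1.92 (1.38 to 2.51) and 2.21 (1.68 to 2.80). Other resident cells, which include cells with 1 state gene UMI, had Patj at 15.7, 19.9 and 3.77 CPM. Gal, the neuropeptide galanin, was at 51.8, 44.9 and 13.3 CPM, and Tppp3, a tubulin-binding protein, at 136, 158 and 58.2 CPM. The WT_DMSO value of Gal rests on 11 UMIs in 10 cells. That of Tppp3 rests on 48 UMIs in 20 cells, with 54.2% in 5 of them. Tppp3 was lowest in WT_DMSO among other resident cells too, at 102, 132 and 68.5 CPM. Mamdc2 was at 90.5, 64.1 and 12.1 CPM, but the WT_DMSO value rests on 10 UMIs in 6 cells, against 201 UMIs in 139 cells of WT_GW5074 and 184 UMIs in KO_DMSO.

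Other genes among the highest in WT_GW5074 were Mmp8 (a neutrophil-type collagenase), Cpne5, Znfx1, Cdc42ep3 (an effector of Cdc42), Lsr and Zfp934, with log2 ratios between 0.90 and 1.36. Cpne5 and Zfp934 did not stay past 1.5-fold under every alternative, with values down to 0.09 and 0.44. WT_DMSO members held from 18 UMIs (Cpne5) to 26 UMIs (Zfp934) of these genes, apart from Lsr (57) and Cdc42ep3 (120). In other resident cells their log2 ratios ran from 0.02 (Znfx1) to 1.42 (Cpne5). In KO_DMSO the others were Acaa1b (a peroxisomal thiolase), Rasgef1b, Cpne5, Tc2n, Agmo (an ether lipid oxygenase) and Manf (an endoplasmic reticulum stress protein), with log2 ratios between 1.22 and 1.78. Cpne5 was as low as 0.45 under 1 alternative. The WT_DMSO values rest on 14 UMIs for Acaa1b, 18 each for Rasgef1b and Cpne5, 20 for Tc2n, 60 for Agmo and 65 for Manf. In other resident cells the log2 ratios ran from 0.49 (Rasgef1b) to 1.29 (Cpne5), with 0.92 for Manf.

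Clec1b, a C-type lectin receptor whose gene lies near Clec7a on chromosome 6 (chr6:129397297-129409335, against chr6:129461591-129472779), had the highest ratio in KO_DMSO. It was at 20.3 CPM in WT_GW5074, 115 CPM in KO_DMSO and 19.4 CPM in WT_DMSO members, a log2 ratio of 2.56 (1.84 to 3.39). Other resident cells gave 12.2, 55.6 and 11.7 CPM, so members were not alone in this. Clec1b overlaps Clec9a on the same strand, and how reads of the shared stretch were counted was not tested.

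S100a8 and S100a9, the neutrophil markers tested, were lower in members of both compared libraries. S100a8, a calprotectin subunit, was at 216 CPM in WT_GW5074, 225 CPM in KO_DMSO and 1239 CPM in WT_DMSO members, and S100a9, its partner, at 52.7, 16.7 and 660 CPM. Other resident cells had 272, 291 and 1319 CPM of S100a8, so the libraries also differed outside the members. In WT_DMSO members, 51.7% of S100a8 UMIs and 62.9% of S100a9 UMIs came from 5 cells. The part of neutrophil RNA in these values was not tested.

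Arg1 and Spp1, both known from macrophages of the injured lung, rested on few WT_DMSO members to different degrees. Arg1 was at 18.9, 15.7 and 116 CPM in WT_GW5074, KO_DMSO and WT_DMSO members, but 84.4% of its 96 WT_DMSO UMIs lay in 5 cells and 44 in 1. With at least 3 state gene UMIs required, the log2 ratio of Arg1 turned to 0.62 in WT_GW5074 and 0.50 in KO_DMSO. In other resident cells Arg1 was at 81.3, 67.2 and 302 CPM in WT_GW5074, KO_DMSO and WT_DMSO. Its log2 ratios to WT_DMSO there were -1.89 and -2.17, from 2964 UMIs in WT_DMSO. Spp1 was at 2888, 2377 and 6562 CPM, a log2 ratio of -1.18 (-1.24 to -1.13) and -1.46 (-1.52 to -1.41), against -0.22 and -0.32 in other resident cells. In WT_DMSO 31.0% of Spp1 UMIs lay in 5 members. Il1b, at 59.4, 31.3 and 124 CPM, had 52.0% of its WT_DMSO UMIs in 5 members.

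Monocyte-derived macrophage markers stood beside these. In WT_GW5074 members 3 of 9 tested were past 1.5-fold lower (among them C1qc and Spp1), and in KO_DMSO members 5 of 9 (among them C1qb, C1qc, Ccr2 and Spp1), with medians of -0.34 and -0.67. The 14 markers summed to 3985, 3268 and 7871 CPM in members and to 10307, 9659 and 11947 CPM in other resident cells of WT_GW5074, KO_DMSO and WT_DMSO. Fcrls and Pf4 were at 0 in WT_DMSO members. Without cells holding 3 or more UMIs of other types' markers the cholesterol synthesis medians were -0.53 in WT_GW5074 and -1.29 in KO_DMSO.

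Glucocorticoid-induced genes were lower in WT_GW5074 members. Of 6 tested, 4 were past 1.5-fold lower (Dusp1, Fkbp5, Mt1 and Mt2) and 0 higher, with a median of -0.88 in members and -0.37 in other resident cells. Fkbp5, a co-chaperone of the glucocorticoid receptor, was at 67.1 CPM in WT_GW5074, 138 CPM in KO_DMSO and 141 CPM in WT_DMSO members, and at 49.9, 104 and 108 CPM in other resident cells. Its log2 ratio for WT_GW5074 over WT_DMSO was -1.07 in members and -1.11 in other resident cells, and that of Dusp1 was -1.22 and -1.14, so both were lower in either cell set. Mt1 and Mt2 were past 1.5-fold lower in members, with log2 ratios of -0.70 and -1.55, and had -0.02 and -0.15 in other resident cells. In KO_DMSO 0 of 8 were past 1.5-fold lower and Per1 was higher, with a median of -0.17. Mt2, a metallothionein, was at 67.5, 145 and 198 CPM, but 53.4% of its WT_DMSO UMIs lay in 5 cells, and its WT_GW5074 log2 ratio was between -1.74 and -0.19 over the alternatives.

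MHC class II genes were somewhat higher in WT_GW5074 members, with 2 of 6 past 1.5-fold (Cd74 and H2-DMb1), 0 lower and a median log2 ratio of 0.46, against -0.0033 for the same genes in other resident cells. In KO_DMSO 1 of 6 was higher (H2-DMb1) with a median of 0.14. Of 15 alveolar macrophage transcription factors tested in KO_DMSO, 3 were past 1.5-fold lower, among them Bhlhe40 and Egr2, and Pparg was higher, while in WT_GW5074 1 of 14 was lower and 0 higher. Bhlhe40, a repressor that alveolar macrophages use for self-renewal, was at 131, 70.0 and 142 CPM in WT_GW5074, KO_DMSO and WT_DMSO. Other resident cells had Bhlhe40 at 128, 92.6 and 152 CPM. Of the Dectin-1 signalling list, 0 of 10 genes was past 1.5-fold in WT_GW5074. In KO_DMSO 1 of 9, the kinase Prkcd, was lower, at 149 CPM against 272 CPM in WT_DMSO. Prkcd was lower in other resident cells too, at 171 CPM in KO_DMSO against 284 CPM in WT_DMSO.

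The remaining named genes of WT_GW5074 were lower as well. Klhl6 was at 56.7, 82.2 and 143 CPM in members of WT_GW5074, KO_DMSO and WT_DMSO. Colec12, a scavenger receptor, was at 32.4, 37.3 and 78.9 CPM, and Srgn, the granule proteoglycan serglycin, at 103, 119 and 234 CPM. Each was lowest in WT_GW5074 members. In other resident cells Klhl6 was at 62.1, 68.5 and 130 CPM and Srgn at 145, 189 and 354 CPM. The difference was thus not confined to members for these genes. Colec12 was at 12.3, 15.8 and 16.2 CPM in other resident cells. In KO_DMSO Arrdc1, an arrestin-like adaptor, was at 25.1 CPM, against 67.9 CPM in WT_DMSO. Lysosomal genes were past 1.5-fold lower in 1 of 16 in WT_GW5074 (Ctsl) and 3 of 16 in KO_DMSO (Ctsd, Ctsl and Psap), with medians of -0.07 and -0.19.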

How the data were processed

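CD11b+ or CD11c+ lavage cells of 3 groups were captured in droplets and their 3′ transcript ends sequenced, 1 library per group. The authors deposited UMI counts that are not normalized, 1 matrix per library with 32286 genes, made with Cell Ranger 2.1.1 and mm10, per the submitters' processing notes. Per the labels, a SeekOne chip was used, while another label names 10x Genomics. Every barcode had at least 500 UMIs. Kept cells were gated as described above, and no doublet caller was run. UMIs were summed over the cells of a set in each library and scaled to CPM. With 1 library per group no p-value or standard error was computed, and a gene was called past 1.5-fold by size alone. Shares have exact Clopper-Pearson intervals, levels exact Poisson intervals and ratios of levels exact conditional binomial intervals, and ratios of shares approximate Katz log intervals, all 95% and for counting error only. A count of 0 was given an upper limit of 3 counts.

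The members and lists were chosen with earlier results of these data known. Named genes had at least 50 CPM in 1 of the cell sets compared and 100 UMIs over both: the 12 highest and 12 lowest log2 ratios for each comparison with WT_DMSO and the 15 highest and 10 lowest medians of members over other resident cells. The 8 genes most like the state were detected in at least 5% of thinned cells. That ranking left out Clec7a, gate genes, predicted and sex-linked genes, and genes of mitochondria, ribosomes, haemoglobin and antigen receptors. The gate genes, the given markers and list members past 1.5-fold or defining a list could be named too. Positions came from GENCODE M21, which held 32236 of the gene identifiers. Alternatives were other gates, depths, scalings and filters. Python 3.11.15, numpy 2.4.6, scipy 1.17.1, pandas 2.3.3, matplotlib 3.10.9 and, for TMM factors, edgeR 4.0.16 in R 4.3.3 were used. The ratio script was tested on simulated data. Some genes that met the naming rule are not reported here, but counts and medians include them.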

Additional observations from a re-analysis of the deposited data

How the results depend on the processing

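No paired analysis was possible because each group is 1 library. Log2 ratios of the members' share to WT_DMSO were 0.87 in WT_GW5074 and 1.46 in KO_DMSO, and both stayed above 0 under every alternative run. They were 1.12 and 1.69 thinned to 2000 UMIs, 0.57 and 1.14 without cells with other types' markers, 0.53 and 1.12 among cells of 2000 to 6000 UMIs, and 1.68 and 2.59 with all kept cells as denominator. KO_DMSO reached 1.80 with at least 3 state gene UMIs. Of the alternatives chosen after seeing the data, the gate at 0.1% of UMIs gave 2.02 and 2.76 and thinning to 1000 UMIs 2.16 and 3.05, and leaving out shared barcodes kept both within their intervals. Past 1.5-fold, thinning to 2000 UMIs left 160 genes lower in KO_DMSO and 81 higher and 88 lower in members over other resident cells, from fewer cells and UMIs. With no floor on low counts there were 1369 higher and 1626 lower in WT_GW5074, 1409 and 2250 in KO_DMSO, and 479 and 367 in members over other resident cells. Without cells with other types' markers the last were 93 and 92. Arg1 reversed with at least 3 state gene UMIs, to 0.62 in WT_GW5074 and 0.50 in KO_DMSO, and the cause was not tested. Of the named genes, 19 of 24 in WT_GW5074 and 22 of 24 in KO_DMSO were past 1.5-fold in the same direction in all 11 alternatives, and 25 of 25 of members over other resident cells in all 12. With 186 WT_DMSO members, genes near 20 CPM rest on few UMIs, and a cell with 1 state gene UMI may differ from a member by sampling alone. The cholesterol synthesis median of KO_DMSO could not be had after thinning, where too few genes passed the floor.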

Other observations

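Cycling cells, with at least 2 UMIs over Mki67, Top2a, Birc5, Cdk1 and Ccnb1, had overlapping counting intervals in members and other resident cells of each library. They were 7.61% of WT_GW5074 members (5.86 to 9.69%), 4.96% of KO_DMSO members (3.68 to 6.52%) and 6.99% of WT_DMSO members (3.77 to 11.7%), against 6.59% (5.86 to 7.37%), 5.51% (4.74 to 6.37%) and 8.04% (6.88 to 9.32%) of other resident cells.

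State gene UMIs were not limited to the resident gate. Among Lyz2-positive cells outside it, 159 of 7578 in WT_GW5074 (2.098%), 134 of 3905 in KO_DMSO (3.43%) and 35 of 2439 in WT_DMSO (1.44%) had 2 or more. Immediate early genes were split in KO_DMSO members, where Fos, at 208 CPM against 108 CPM in WT_DMSO, and Btg2 were past 1.5-fold higher, and Junb, at 114 CPM against 235 CPM, and Egr2 were lower, of 9 tested. Type I interferon genes were past 1.5-fold in 0 of 3 tested in both libraries. The chemokine Ccl17 was higher in both, at 49.5 CPM in WT_GW5074 and 47.0 CPM in KO_DMSO, against 23.1 CPM in WT_DMSO. The WT_DMSO value rests on 19 UMIs. Ccl17 was detected in 6.22%, 7.13% and 8.06% of members of WT_GW5074, KO_DMSO and WT_DMSO. Other resident cells went the other way, at 115, 129 and 152 CPM.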
